A study of Homo sapiens with 12 samples.

Results

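The distal long arm of chromosome 9 was followed in MDA-MB-231 cells, a mesenchymal line derived from human breast cancer, of WT and ΔCRE genotype. In ΔCRE cells the NFAT and NF-κB binding sites of the core-regulatory element (CRE) in the promoter of ETS1, a transcription factor gene on another chromosome, had been removed with CRISPR/Cas9. Both genotypes were harvested without stimulation (0 h, the mock group) and after 6 and 24 h of PMA, a phorbol ester that activates protein kinase C, with Ionomycin, a calcium ionophore. Each of the 6 groups held 2 libraries, which makes 12 in all. The sources used here do not give the number of ΔCRE clones that were sequenced, so the deletion and other differences between a clone and the parental cells cannot be told apart.

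The genes described here were chosen by position and level. They are the features of the deposited table that start at 120 Mb of chromosome 9 or beyond (hg19) and have a mean of at least 0.5 FPKM over the 6 WT libraries. FPKM values are fragments scaled to the length of the transcript and to the mapped fragments of the library. Of 24331 features, 213 met the rule, and they start between 120.466 and 140.513 Mb. Of the 344 features in this stretch, 131 were under the level limit, among them 59 that were listed at 0 in all 12 libraries. The mean WT level of the 213 members ran from 0.501 to 3518 FPKM with a median of 13.4 FPKM. The region was chosen because its ratio of ΔCRE to WT expression was low in these same libraries, so that all differences between the genotypes are given as descriptions without a test.

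The end of the long arm of chromosome 9 is a gene-dense stretch in which housekeeping genes for ribosomal proteins, mitochondrial enzymes and the secretory pathway lie beside signalling genes such as NOTCH1, ABL1 and TSC1. It also holds a cluster of lipocalin genes, the closely packed surfeit genes, and genes of blood vessel biology such as ENG and EGFL7. ENG encodes endoglin, a co-receptor for TGF-β ligands, and EGFL7 encodes a secreted matrix protein best known from endothelial cells. PMA with Ionomycin activates NF-κB and NFAT in many cell types, and TRAF1 and PTGES in this region are known targets of inflammatory stimulation.

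ETS1 was checked first. Its expression in WT cells was 24.0 and 23.7 FPKM at 0 h, 139.2 and 145.2 FPKM at 6 h, and 36.2 and 39.7 FPKM at 24 h. In ΔCRE cells it was 62.8 and 62.2 FPKM at 6 h and 29.3 and 30.7 FPKM at 24 h, below both WT libraries of the same time. At 0 h ΔCRE replicate 2 had 16.5 FPKM, and the library that carries the label ΔCRE 0 h replicate 1 had 5.08 FPKM. The latter stood apart from all others. Its sum over 10 markers of gut epithelium was 10747 FPKM, with all 10 above 1 FPKM, against 3.47 to 5.27 FPKM in the other 11 libraries. Of 5 genes listed as absent from MDA-MB-231 cells, 3 were above 1 FPKM there. CDH1 was at 52.3 FPKM there and at most 0.0318 FPKM elsewhere. EPCAM, also among the 10 gut markers, was at 1139 FPKM (2.02 to 3.38 FPKM elsewhere). ERBB3 was at 44.5 FPKM (0.528 to 1.39 FPKM elsewhere). ESR1 and PGR were not raised, at 0 and 0.0128 FPKM. This library also held the markers of the line. The sum over 5 genes known to be expressed in MDA-MB-231 cells was 5041 FPKM there, with all 5 detected, against 3467 to 5150 FPKM elsewhere. All FPKM values of this library summed to 1423330, against 566255 to 651080 in the other 11, so equal sums are not equal shares. Among the 5 genes, the mesenchymal marker VIM was at 1199.5 FPKM there and between 1543 and 2539 FPKM in the other 11 libraries. LGALS1 (3669 FPKM, 1708.5 to 3087 FPKM elsewhere) and SPARC (44.8 FPKM, 5.56 to 12.6 FPKM elsewhere) were above the range of the others, and CD44 and AXL were within it. The library labelled ΔCRE 0 h replicate 1 was therefore kept out of the reported fits, and its values are given apart. The other replicates of a group correlated at an r between 0.981 and 0.986 over 12126 features. FPKM values keep no fragment counts and leave the sequencing depth open. Whether replicates came from separate cultures is not stated beyond the study's term biological replicates, so p-values measure the spread between these samples only.

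The promoters of 3 members are shown. They were picked by the mean of the log2 differences between ΔCRE and WT cells at 6 and 24 h, leaving out small RNAs. By this measure ENG and EGFL7 lay farthest below the rest of the region and PTGES farthest above it. Each is the RefSeq sequence of the 250 bases before a gene start, written 5′ to 3′ on the strand of the gene, and each was found once on chromosome 9 of GRCh37, the build also called hg19. The deposited loci of ENG and PTGES end at 130617047 and 132515344, so these windows lie in part within them. The window of the second EGFL7 start lies wholly within the deposited locus of that gene. Capitals mark GGAA, the core that ETS factors recognise, or TTCC, the same core on the other strand.
ENG, reverse strand, chr9:130616938-130617187: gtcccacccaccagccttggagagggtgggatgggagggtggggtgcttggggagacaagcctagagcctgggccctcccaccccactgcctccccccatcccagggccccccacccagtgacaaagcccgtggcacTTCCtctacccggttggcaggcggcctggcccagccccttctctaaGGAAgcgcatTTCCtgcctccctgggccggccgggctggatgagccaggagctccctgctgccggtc
EGFL7, first start, forward strand, chr9:139553058-139553307: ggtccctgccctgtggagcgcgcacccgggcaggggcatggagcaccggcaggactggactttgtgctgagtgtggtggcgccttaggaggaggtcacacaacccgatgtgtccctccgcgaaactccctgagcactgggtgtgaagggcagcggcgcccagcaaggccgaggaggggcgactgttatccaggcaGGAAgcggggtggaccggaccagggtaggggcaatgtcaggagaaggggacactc
EGFL7, second start, forward strand, chr9:139557118-139557367: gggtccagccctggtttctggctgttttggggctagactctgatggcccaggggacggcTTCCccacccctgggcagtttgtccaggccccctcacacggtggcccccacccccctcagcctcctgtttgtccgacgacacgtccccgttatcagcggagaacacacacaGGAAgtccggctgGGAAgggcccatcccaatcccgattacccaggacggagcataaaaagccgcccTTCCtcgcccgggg
PTGES, reverse strand, chr9:132515322-132515571: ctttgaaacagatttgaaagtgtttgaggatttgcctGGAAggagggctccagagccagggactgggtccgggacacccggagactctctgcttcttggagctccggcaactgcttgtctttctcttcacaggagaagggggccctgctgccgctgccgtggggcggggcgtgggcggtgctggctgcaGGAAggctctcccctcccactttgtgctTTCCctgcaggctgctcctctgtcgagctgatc
The core occurred 3 times before ENG, 1 time before the first and 4 times before the second start of EGFL7, and 3 times before PTGES. A core of this length is frequent. It was present in 92.7% of 35116 promoter windows of this length, and in 88.8% of the 267 windows that belong to members. The longer motif CCGGAAGT, searched on both strands and overlapping with GGAA, was in none of the 4 windows shown, in 3.42% of all windows and in 6.37% of those of members. Promoter windows were found for 180 of the 213 members, 19 of them by an older symbol.

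Expression of the members was lower in ΔCRE than in WT cells across nearly the whole stretch. The difference between ΔCRE and WT cells was taken for each feature as the difference of the mean log2(FPKM + 1), a scale on which changes of weakly expressed genes come out smaller than they are. The median difference of the 213 members was −0.24 at 6 h and −0.25 at 24 h, and −0.18 at 0 h with ΔCRE replicate 2 as the only ΔCRE library. Over all 12126 features with the same minimum WT level the median was 0.0087 at 6 h, 0.0084 at 24 h and 0.0031 at 0 h. Over the 293 features of chromosome 9 that start before 120 Mb it was 0.031, 0.037 and 0.0063. In such bulk samples fewer cells that express a gene and less RNA per cell cannot be told apart. Of the 213 members 194 (91.1%) were below 0 at 6 h, 195 (91.5%) at 24 h and 186 (87.3%) at 0 h. For the 169 members with at least 5 FPKM in WT cells, the median ratio of ΔCRE to WT expression was 83.0% (6 h), 81.7% (24 h) and 86.4% (0 h). The 8048 other features of that level had a median of 101.6%, 101.4% and 101.0%.

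**Figure D1:**
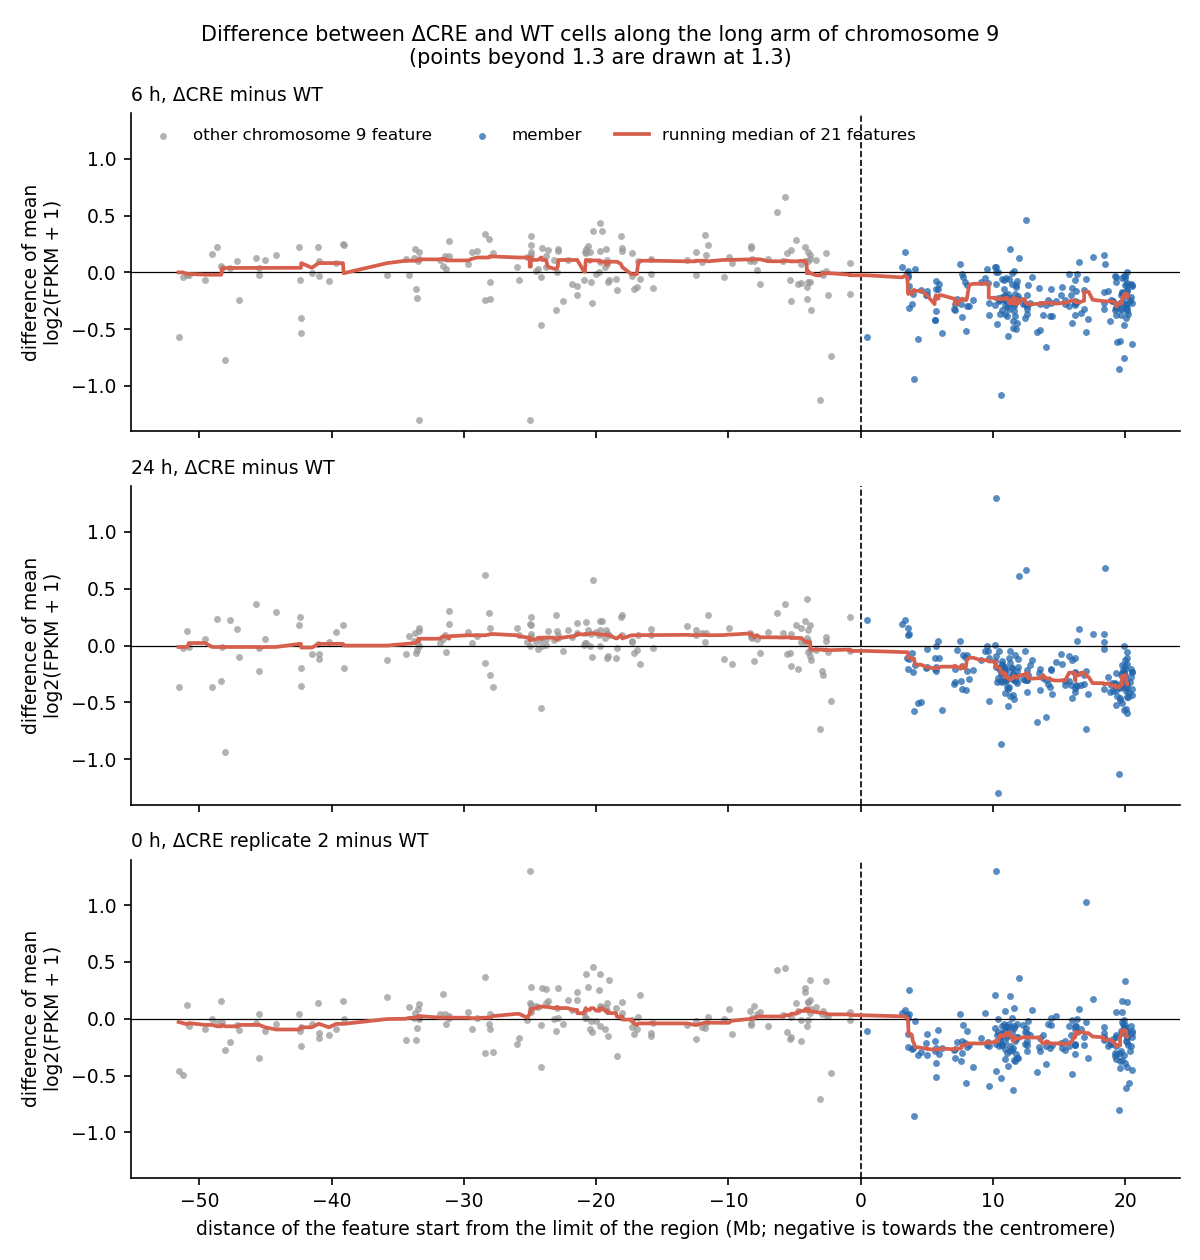
Difference of mean log2(FPKM + 1) between ΔCRE and WT cells for each feature of the long arm of chromosome 9 with at least 0.5 FPKM in WT cells, by the distance of its start from 120 Mb, at 6 h, 24 h and 0 h (ΔCRE replicate 2 only). Blue points are members, grey points other features, and the line is a running median over 21 features; points beyond 1.3, among them 2 members at 24 h and 1 at 0 h, are drawn at 1.3. The line lies near 0 just before the limit and stays below 0 from about 4 Mb past it to the end. Farther towards the centromere it lies in part above 0. The features from 95 to 100 Mb had medians of 0.11 (6 h), 0.07 (24 h) and 0.09 (0 h).

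The same difference was seen in every pair of a ΔCRE and a WT library of the same time, apart from those with ΔCRE 0 h replicate 1. At 6 h the median over the members lay between −0.19 and −0.28 in the 4 pairs, and at 24 h between −0.19 and −0.32. At 0 h ΔCRE replicate 2 was at −0.20 against WT replicate 1 and at −0.14 against WT replicate 2. The SD of the pair medians was 0.036 at 6 h (n = 4 pairs) and 0.057 at 24 h (n = 4 pairs), and the pairs share libraries. Replicate libraries of a group also differed, by less. Replicate 2 less replicate 1 of the WT cells had a member median of −0.056 (0 h), −0.045 (6 h) and −0.043 (24 h), with 0.0034, −0.00094 and 0.0053 over all features. In ΔCRE cells it was −0.046 at 6 h and −0.077 at 24 h. The ΔCRE replicates at 0 h, of which replicate 1 is the library that stood apart, differed by −0.24. Without that pair, the smallest median of a genotype pair at 6 or 24 h was larger in size than the largest of a replicate pair. The region was chosen for a low ratio of ΔCRE to WT expression in these same libraries, so nothing is read from this order. The library labelled ΔCRE 0 h replicate 1 gave no such shift against WT. Its member median against the WT mean was 0.045, its members had an interquartile range of 1.17, and 47.4% of them were below 0.

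**Figure D2:**
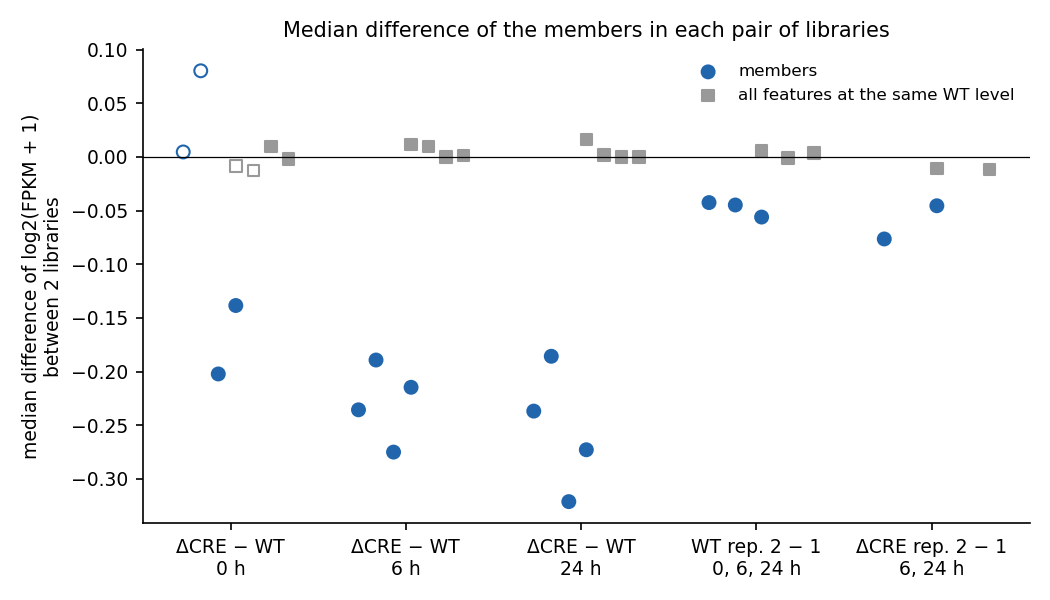
Median difference of log2(FPKM + 1) between 2 libraries, over the 213 members (circles) and over all 12126 features of the same WT level (squares). Open symbols are pairs with ΔCRE 0 h replicate 1; the other 10 genotype pairs have member medians between −0.32 and −0.14, and the other 5 replicate pairs lie between −0.077 and −0.043.

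Both ΔCRE libraries were below both WT libraries for 161 members (75.6%) at 6 h, where 26.1% of all features of the same WT level did so, and for 167 members (78.4%) at 24 h, against 25.5% of all features. At both times this held for 144 members (67.6%), against 14.7% of all features. In the opposite direction, 7 members at 6 h, 10 at 24 h and 6 at both times had both ΔCRE libraries above both WT libraries, against 28.1%, 26.1% and 13.9% of all features. The limma model passed 209 of the members through its filter of a mean of 0.5 FPKM over the fitted libraries. At an adjusted p under 0.05, 55 members were called lower at 6 h, where 5.86% of all 12129 tested features were, and 55 at 24 h, against 3.74%. Members called higher numbered 1 at 6 h, with 3.3% of all features, and 3 at 24 h, with 2.18%. Those called lower at both times were 37, against 2.56%, and 1 was called higher at both, against 1.35%. In either direction 56 members were called at 6 h and 58 at 24 h, against 9.16% and 5.92% of all features. The members were chosen on this contrast, so nothing is read from these shares. With all 12 libraries in the model, among them the library that stood apart, 1 member was called lower at 6 h and 1 at 24 h. Of all features 0.157% and 0.0708% were. ANGPTL2, LOC389791, CEL and RNF208 did not pass the filter.

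The lowered stretch did not begin at 120 Mb. TLR4, the receptor for bacterial lipopolysaccharide and the first member, starts at 120466453 and was at 4.13 and 4.21 FPKM in WT and 2.59 and 2.39 FPKM in ΔCRE cells at 6 h, but at 4.19 and 4.60 FPKM against 5.16 and 5.47 FPKM at 24 h. The next member lies at 123151147. It is CDK5RAP2, which encodes a centrosome protein, with a difference of 0.05 at 6 h and 0.19 at 24 h. MEGF9, a membrane protein with EGF-like repeats, was at 0.18 and 0.22, and PSMD5, a chaperone of proteasome assembly, at 0.01 and 0.09. On the other side of the limit, ASTN2 was at 0.09 and 0.25 and TRIM32, a ubiquitin ligase in the same locus, at −0.19 and −0.05. The last feature of that level before these, TNC at 117781854, which encodes the matrix protein tenascin C, was at −0.74 and −0.49. From CNTRL at 123850574, which encodes a centriole protein, most members were below 0. CNTRL was at −0.28 (6 h), −0.06 (24 h) and −0.27 (0 h). RAB14 at 123940415, a Rab GTPase of endosomes, was at −0.19, −0.23 and −0.26. GSN follows it at 124030380. In the GENCODE annotation GSN and RAB14 overlap on opposite strands, while their deposited spans do not. STOM at 124101266, a membrane protein that binds cholesterol, was at 0.03 and −0.17.

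At a split at 123.7 Mb, set after the values were seen, the 9 members before it had medians of −0.02 (6 h), 0.10 (24 h) and 0.03 (0 h). The 204 members past it had medians of −0.24, −0.26 and −0.19, and 184 of them were below 0 at both 6 and 24 h. Moving the split to 123.5 or 124 Mb left the medians past it between −0.24 and −0.27 at 6 and 24 h. By 1 Mb bins, 15 bins held at least 5 members, and their medians were below 0 in 15 (6 h), 14 (24 h) and 14 (0 h). The bin from 123 to 124 Mb, with 10 members, was the exception, at −0.03, 0.01 and 0.02. The lowest bin was 133 to 134 Mb at 6 h, at −0.44 with 6 members, and 124 to 125 Mb at 24 h, at −0.49 with 5 members.

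In 5 Mb bins the differences were similar from 125 Mb to the end at 6 h. The medians were −0.23 from 125 to 130 Mb (31 members), −0.24 from 130 to 135 Mb (81 members), −0.25 from 135 to 140 Mb (64 members) and −0.22 beyond (21 members). At 24 h they were −0.18, −0.26, −0.32 and −0.34 in the same order, and at 0 h −0.25, −0.16, −0.17 and −0.16. The bin from 120 to 125 Mb (16 members) was at −0.14, −0.11 and −0.12, and the bin from 115 to 120 Mb (25 features, no members) at −0.01, 0.03 and 0.07. Between 125 and 140 Mb the medians at 24 h fell from bin to bin in all 4 library pairs. The place of the bin beyond 140 Mb moved with the pair. From 140 Mb on, the median was −0.47 for ΔCRE replicate 2 against WT replicate 1 and −0.18 for ΔCRE replicate 1 against WT replicate 2. In that bin the WT replicates themselves differed by −0.14 at 0 h, −0.11 at 6 h and −0.12 at 24 h, while from 125 to 130 Mb they differed by 0.0015, 0.037 and 0.028. At 24 h the WT replicates differed by −0.028 from 130 to 135 Mb and by −0.063 from 135 to 140 Mb. The place of the last bin was therefore not separable from the spread between replicates. A gradient along the arm was not tested, and the pairs share libraries. Across the genome, 302 bins of 5 Mb held at least 15 features. Of the 297 that do not lie in the region, 4 had a median at or below that of the members at 6 h and 4 at 24 h. At 6 h they lay on chromosomes 8 and 10, and at 24 h on chromosomes 10 and 17. The bin of chromosome 8 from 20 to 25 Mb (29 features) was at −0.26 at 6 h and −0.12 at 24 h.

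The members scattered around their shifted median about as much as other features scattered around 0. Their interquartile range was 0.22 at 6 h and 0.20 at 24 h, against 0.22 and 0.20 over all features of the same level. With at least 5 FPKM in WT cells it was 0.21 and 0.18 for the members and 0.20 and 0.19 for all features. Of these 169 members, 124 (73.4%) lay within 0.2 of the member median at both times, 147 (87.0%) within 0.3 and 161 (95.3%) within 0.5. More than 0.3 below the median at both times were 5 members, and more than 0.3 above it 4. In 3 equal classes of the WT level the median at 6 h was −0.21, −0.27 and −0.24 from low to high, and at 24 h −0.21, −0.28 and −0.28. The lowest class held members up to 8.73 FPKM, whose differences this log scale shrinks. By strand, 85 members on the forward strand were at −0.27 and −0.24, and 99 on the reverse strand at −0.20 and −0.25.

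**Figure D3:**
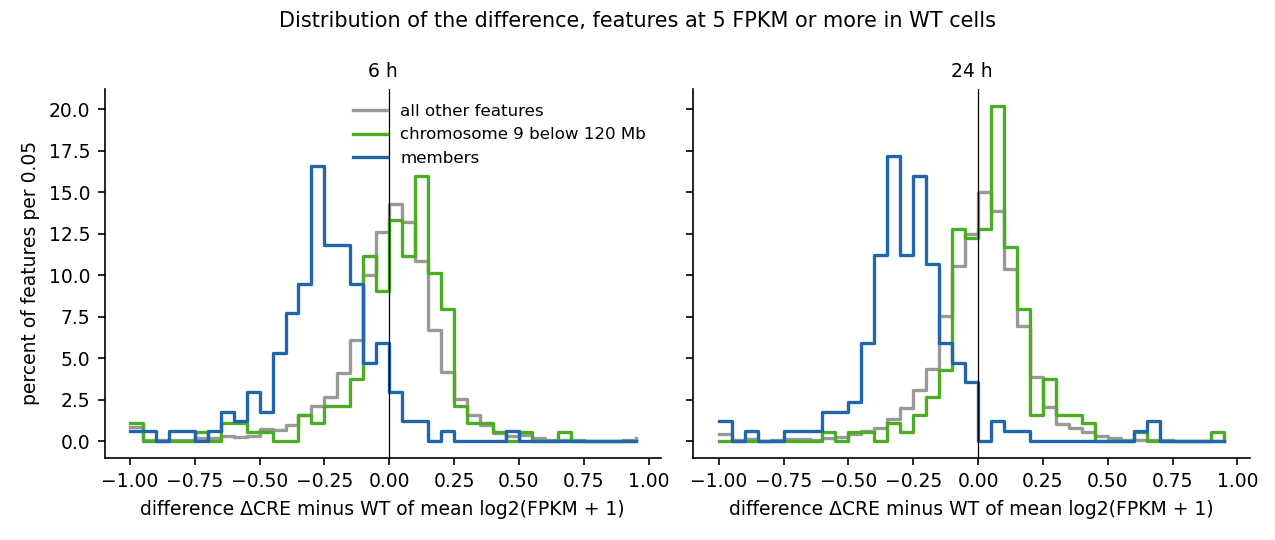
Distribution of the difference between ΔCRE and WT cells at 6 and 24 h, in percent of features per step of 0.05, for the features with at least 5 FPKM in WT cells. The highest step of the 169 members (blue) is the one from −0.3 at 6 h (16.6%) and from −0.35 at 24 h (17.2%), while the rest of chromosome 9 (green, 188 features) and all other features (grey, 8048) peak at or above 0.

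Genes close to the member median show what the typical member did. PSMB7, a catalytic subunit of the proteasome, was at 212 and 241 FPKM in WT and 191 and 182 FPKM in ΔCRE cells at 6 h, and at 229 and 234 FPKM against 202 and 200.3 FPKM at 24 h. The groups did not overlap at either time. AK1, an adenylate kinase, was at 25.97 and 23.9 FPKM against 20.5 and 21.6 FPKM at 6 h, and at 32.3 and 29.9 FPKM against 27.8 and 24.2 FPKM at 24 h, again without overlap. EXOSC2, a subunit of the RNA exosome, was at −0.28 and −0.21, SURF2 at −0.25 and −0.24, and WDR85, which acts in diphthamide synthesis, at −0.22 and −0.28. In the GENCODE annotation SURF2 overlaps SURF1 on the other strand, and 34 members overlap another member in this way. The strand setting of the counting is not stated, so reads of such pairs may not be told apart.

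By the mean of the log2 differences at 6 and 24 h, and leaving out small RNAs, ENG and EGFL7 lay farthest below the rest. At 6 h alone GSN, at −0.94, was below EGFL7. As a ratio of FPKM, ANGPTL2 was lower than both, at 9.68% of WT at 6 h and 15.8% at 24 h, but lies near the level limit. ENG was at 24.2 and 22.3 FPKM in WT cells at 0 h, 20.8 and 19.5 FPKM at 6 h, and 25.7 and 24.9 FPKM at 24 h. In ΔCRE cells it was at 15.1 FPKM in replicate 1 and 15.9 FPKM in replicate 2 at 0 h, 9.32 and 8.76 FPKM at 6 h, and 13.5 and 13.4 FPKM at 24 h. Leaving out ΔCRE 0 h replicate 1, the library that stood apart, every ΔCRE library was below every WT library. The difference was −1.08 at 6 h and −0.86 at 24 h, which is 44.8% and 53.2% of the WT level in FPKM. EGFL7 was at 20.02 and 16.6 FPKM in WT cells at 0 h, 18.6 and 16.3 FPKM at 6 h, and 34.1 and 30.3 FPKM at 24 h. In ΔCRE cells it was at 9.999 FPKM in replicate 2 at 0 h, 9.56 and 8.88 FPKM at 6 h, and 15.6 and 12.9 FPKM at 24 h, below both WT libraries of each time, whereas ΔCRE 0 h replicate 1 had 43.9 FPKM. The difference was −0.85 at 6 h and −1.13 at 24 h, 52.9% and 44.2% of WT.

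Of the other members well below the median, 2 encode proteins that act on actin. GSN, the filament-severing protein gelsolin, was at 7.92 and 7.89 FPKM in WT and 3.23 and 4.10 FPKM in ΔCRE cells at 6 h, and at 19.9 and 17.4 FPKM against 11.9 and 12.4 FPKM at 24 h. AIF1L, an actin-bundling protein, was at 8.18 and 8.73 FPKM against 5.14 and 4.85 FPKM at 6 h, and at 7.46 and 8.30 FPKM against 5.19 and 4.35 FPKM at 24 h. Neither overlapped. DAB2IP, a GTPase-activating protein for Ras, was at −0.59 and −0.50, and DENND1A, an exchange factor for RAB35, at −0.54 and −0.57. ASS1, which makes argininosuccinate for arginine synthesis, was at 35.9 and 34.8 FPKM in WT and 25.8 and 22.9 FPKM in ΔCRE cells at 6 h, and at 37.2 and 34.4 FPKM against 24.2 and 20.2 FPKM at 24 h. NPDC1 was at −0.75 and −0.57. In ΔCRE 0 h replicate 1 the levels of GSN (83.6 FPKM), ASS1 (60.4 FPKM) and NPDC1 (68.4 FPKM) were above those of all other libraries.

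Members at the upper end were PTGES, IER5L and PAEP. PTGES, the inducible prostaglandin E synthase, was at 64.7 and 61.2 FPKM in WT cells at 0 h, 37.5 and 37.2 FPKM at 6 h, and 39.6 and 35.5 FPKM at 24 h. In ΔCRE cells it was at 59.3 FPKM in replicate 2 at 0 h (53.2 FPKM in replicate 1, the library that stood apart), 55.3 and 48.3 FPKM at 6 h, and 59.99 and 60.1 FPKM at 24 h. Replicate 2 was thus below both WT libraries at 0 h, and both ΔCRE libraries were above both WT libraries at 6 and 24 h, with differences of 0.46 and 0.66. IER5L, a relative of the immediate early gene IER5, was at 11.1 and 10.02 FPKM against 11.8 and 11.4 FPKM at 6 h, and at 11.9 and 10.3 FPKM against 18.7 and 16.2 FPKM at 24 h. PAEP, the lipocalin glycodelin, was at 4.22 and 4.74 FPKM in WT and 5.29 and 4.31 FPKM in ΔCRE cells at 6 h, where the groups overlapped. At 24 h it was at 46.7 and 40.4 FPKM in WT and 76.5 and 65.0 FPKM in ΔCRE cells, without overlap.

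Other members above the median stood near 0. COL5A1, a chain of type V collagen, was at 0.14 and 0.11 and C9orf116 at 0.15 and 0.10. With both ΔCRE libraries below both WT libraries, SURF4, a cargo receptor of the endoplasmic reticulum, was at −0.06 and −0.11, and ODF2, a component of centriole appendages, at −0.06 and −0.11. PPP2R4 at 131873228, just before IER5L at 131937831 and PTGES at 132500615, was at −0.23 and −0.19. RXRA at 137218316, which precedes COL5A1 at 137533652, was at −0.41 and −0.42. Between IER5L and PTGES, NTMT1, an N-terminal methyltransferase, was at −0.28 and −0.05, and close to C9orf116, MRPS2 of the mitochondrial ribosome was at −0.17 and −0.03. Small RNA features gave the values farthest from 0. Of the 4 among the members, MIR3911 was at −2.73 at 24 h and at 0.00 at 6 h, and SNORA65 was at 1.39 at 24 h and 2.18 at 0 h. Poly(A)-selected libraries measure such RNAs poorly.

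**Figure D4:**
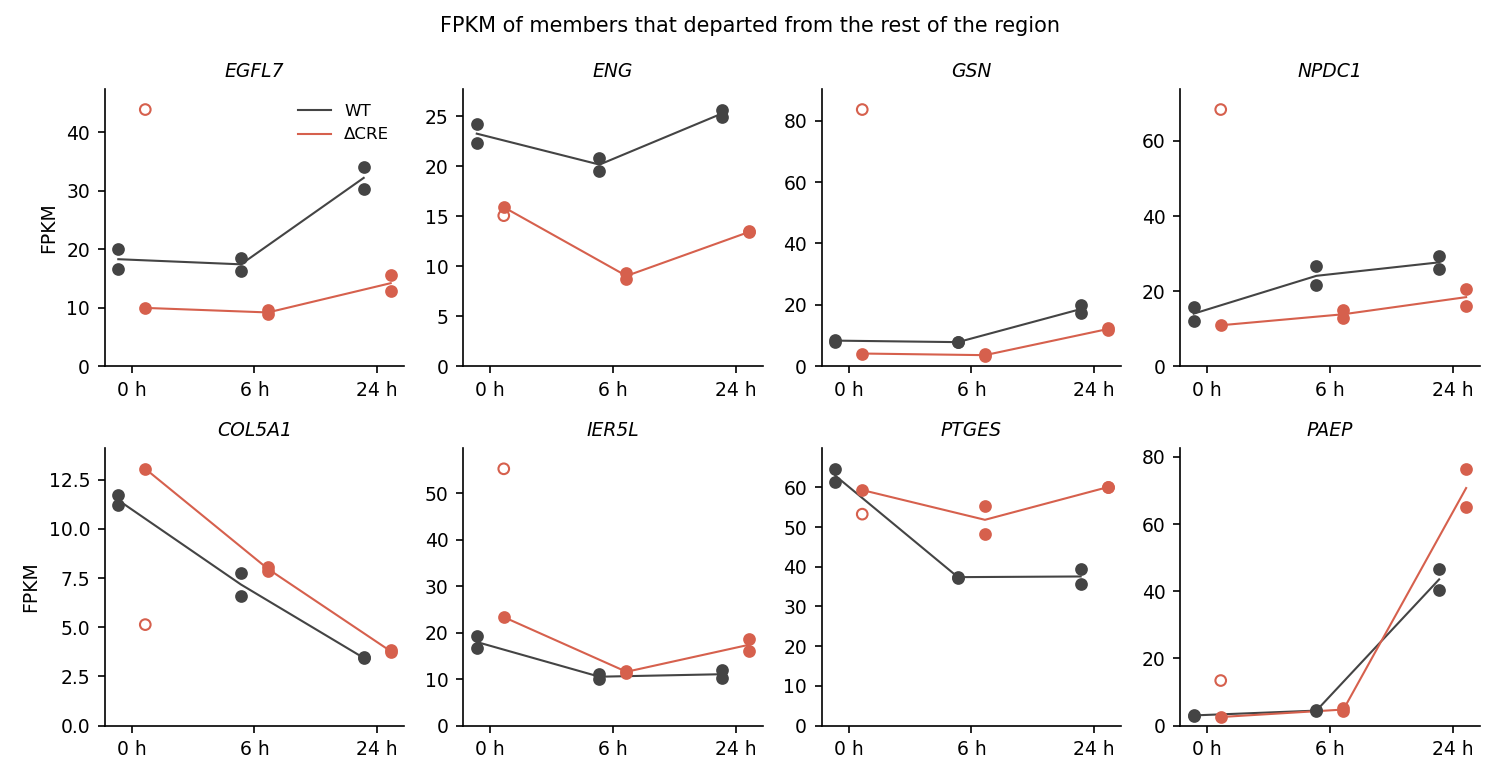
FPKM of 8 members in each library at 0, 6 and 24 h. Black points are WT and red points ΔCRE libraries, lines join the means, and the open circle is ΔCRE 0 h replicate 1, which is left out of the lines; the upper row shows members lower in ΔCRE cells and the lower row members that were higher at 24 h.

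By function, the median difference was below 0 at both times in 8 of 9 lists of member genes, which together hold 156 of the 213 members. Medians given here are at 6 and then at 24 h, where the median of all tested features was 0.01 at both. The calls in these lists come from the contrast on which the region was chosen, so that nothing is read from them, and the share of all features called lower is given beside each count. Among receptor and kinase signalling genes, all 22 members were tested, and 14 were called lower at 6 h and 10 at 24 h (against 5.86% and 3.74% of all features), with medians of −0.33 and −0.25. NOTCH1, the receptor, was at 7.99 and 7.03 FPKM in WT and 4.74 and 4.41 FPKM in ΔCRE cells at 6 h, a difference of −0.61. ABL1, a tyrosine kinase, was at −0.51 and −0.39, and TSC1, a subunit of the complex that restrains mTORC1, at −0.30 and −0.09. SET, an inhibitor of the phosphatase PP2A, was less lowered, at −0.10 and −0.20, and was at 298 and 297 FPKM in WT against 265 and 288 FPKM in ΔCRE cells at 6 h. PPP2R4 is an activator of the same phosphatase. NEK6, a mitotic kinase, was at −0.32 and −0.34, and MAPKAP1, a subunit of mTORC2, at −0.30 and −0.29.

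The proteasome and ubiquitin list had 12 tested members, of which 7 were called lower at 6 h and 5 at 24 h (against 5.86% and 3.74% of all features), with medians of −0.32 and −0.31. URM1, a ubiquitin-like protein, was at 33.5 and 34.0 FPKM in WT and 23.1 and 22.2 FPKM in ΔCRE cells at 6 h, UBAC1 was at −0.42 and −0.41, and FBXW5, an F-box protein, at −0.18 and −0.22. In the list of adhesion, matrix and angiogenesis genes 6 members were tested, and 2 were called lower at 6 h (ENG and EGFL7) and 3 at 24 h, with CERCAM at −0.36 the additional one, against 5.86% and 3.74% of all features. Its 7 members ran from −1.08 to 0.14 at 6 h, the widest range of the 9 lists. The cytoskeleton, centrosome and cilium list had 17 tested members with 5 called lower at 6 h and 6 at 24 h, against 5.86% and 3.74% of all features, and medians of −0.17 and −0.28. ARPC5L, a subunit of the Arp2/3 complex, was at −0.40 and −0.39, TUBB4B, a β-tubulin, at −0.10 and −0.11, and SPTAN1, a spectrin, at 0.20 and −0.05. WDR34, a dynein chain in the same deposited locus as SPTAN1, was at −0.27 and −0.44.

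Ribosome, RNA processing and nuclear export had 19 tested members with medians of −0.27 and −0.24, and 6 were called lower at 6 h and 3 at 24 h, against 5.86% and 3.74% of all features. RPL35, a protein of the large ribosomal subunit and the member with the highest level, was at 3672 and 3484 FPKM in WT and 3048 and 2855 FPKM in ΔCRE cells at 6 h. RPL7A was at −0.27 and −0.24 and RPL12 at −0.10 and −0.09, and MRPL41 of the mitochondrial ribosome at −0.11 and −0.21. RPL35, RPL7A and RPL12 have processed copies elsewhere in the genome with which they can share reads. Mitochondria and metabolism had 23 tested members with medians of −0.22 and −0.30, of which 4 were called lower at 6 h and 7 at 24 h, against 5.86% and 3.74% of all features. AGPAT2, an enzyme of phospholipid and triglyceride synthesis, was at 60.6 and 54.1 FPKM in WT and 36.2 and 38.7 FPKM in ΔCRE cells at 6 h, while PMPCA, a mitochondrial processing peptidase subunit, was at −0.31 and −0.39 and NDUFA8 of complex I at −0.20 and −0.20. PHPT1, a histidine phosphatase, was at −0.33 and −0.37.

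Among the 26 tested members of the secretory pathway and glycosylation, 6 were called lower at 6 h and 6 at 24 h (against 5.86% and 3.74% of all features), with medians of −0.22 and −0.22. HSPA5, the chaperone BiP of the endoplasmic reticulum, was at −0.11 and −0.08 and DPP7, a peptidase, at −0.11 and −0.32. Chromatin and transcription had 28 tested members with medians of −0.20 and −0.23, and 5 were called lower at 6 h and 6 at 24 h, against 5.86% and 3.74% of all features. RXRA, the partner of several nuclear receptors, was called lower at both times, EDF1, a transcriptional coactivator, at −0.17 and −0.17, CIZ1 at −0.20 and −0.31, and PHF19, a partner of Polycomb complex 2, at −0.12 and −0.11. The list of prostaglandin enzymes and lipocalins had only 3 members, of which 1 was called higher at 6 h and 2 at 24 h, against 3.3% and 2.18% of all features, and none lower. They were PTGES (higher at both times), PAEP (higher at 24 h) and PTGES2, the membrane-associated prostaglandin E synthase 2, at −0.24 and −0.30.

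The time course in WT cells did not enter the choice of the region and was tested with limma (10 libraries in 5 groups, 5 residual degrees of freedom, two-sided, Benjamini-Hochberg over 12129 features). Between 0 and 6 h, 55 of 209 members rose, with 22.3% of all features, and 35 fell, with 20.7%. Between 0 and 24 h, 58 rose and 46 fell, with 26.4% and 26.8% of all features. Between 6 and 24 h, 44 rose and 54 fell, with 21.1% and 24.9%. Together, 90, 104 and 98 members changed, or 43.1%, 49.8% and 46.9% of those tested, near the 43.0%, 53.2% and 46.0% of all features. The split between directions moved with the scaling. Rescaling to TPM moved the median of all features at 6 h against 0 h to −0.11. It gave 41 member rises and 59 falls between 0 and 6 h, where 1968 and 3700 of all features rose and fell. From 6 to 24 h, 61 members rose and 27 fell, with 3504 and 1835 of all features. After quantile normalization 47 rose and 41 fell between 0 and 6 h, with 2447 and 3029 of all features. From 6 to 24 h, 48 rose and 39 fell, with 2770 and 2738 of all features. With all 12 libraries, among them the library that stood apart, 19, 27 and 17 members changed, with 7.08%, 10.1% and 4.96% of all features. In ΔCRE cells between 6 and 24 h, 49 members rose and 55 fell, with 22.5% and 25.8% of all features.

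TRAF1, an adaptor of TNF receptors, gave the largest rise. It was at 1.13 and 0.962 FPKM at 0 h, 81.5 and 80.8 FPKM at 6 h, and 9.31 and 9.44 FPKM at 24 h in WT cells. The log2 difference was 5.33 at 6 h (SE 0.067, adjusted p = 1.8e-10, limma), and at 24 h a difference of 2.34 from the start remained (adjusted p = 5.1e-08, limma). HSPA5 went from 296 and 295 FPKM to 1314 and 1379 FPKM at 6 h and back to 422 and 428 FPKM at 24 h, a rise of 2.18 (SE 0.051, adjusted p = 9.3e-09, limma). SLC2A6, a member of the glucose transporter family, went from 4.59 and 4.75 FPKM to 21.1 and 19.4 FPKM at 6 h, a rise of 1.91 (adjusted p = 5.8e-07, limma). TLR4 rose by 0.40 within 6 h (adjusted p = 0.0065, limma), and its rise over 24 h was 0.47 (adjusted p = 0.0024, limma).

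Other members rose late or stayed high. PAEP was at 2.98 and 3.12 FPKM at 0 h and at 46.7 and 40.4 FPKM at 24 h, a rise of 3.46 (SE 0.11, adjusted p = 1.2e-07, limma). ASS1 rose by 1.38 at 24 h (adjusted p = 8.0e-06, limma), from 13.7 and 12.4 FPKM to 37.2 and 34.4 FPKM. From 6 to 24 h GSN rose by 1.14 (adjusted p = 5.1e-05, limma) and NOXA1, an activator of NADPH oxidase 1, by 1.15 (adjusted p = 0.0017, limma), from 1.14 and 0.950 FPKM to 3.25 and 3.83 FPKM. EGFL7 rose by 0.85 over the same interval (adjusted p = 0.00057, limma).

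Members that fell included NEK6 from 23.9 and 23.8 FPKM at 0 h to 11.6 and 9.76 FPKM at 6 h (log2 difference −1.09, SE 0.081, adjusted p = 1.4e-05, limma). RXRA fell by 0.91 (adjusted p = 2.7e-05, limma) and PTGES by 0.74 (adjusted p = 0.00010, limma) at 6 h. COL5A1 fell by 1.49 between 0 and 24 h (SE 0.078, adjusted p = 1.6e-06, limma), from 11.7 and 11.2 FPKM to 3.41 and 3.47 FPKM. From 6 to 24 h TRAF1 fell by 2.98 (adjusted p = 3.5e-08, limma), HSPA5 by 1.66 (adjusted p = 1.5e-07, limma) and COL5A1 by 0.88 (adjusted p = 5.6e-05, limma). The 3 comparisons between times share libraries. With all 12 libraries in the model the changes of ASS1 from 0 h and of GSN, NOXA1 and COL5A1 from 6 to 24 h were not called.

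**Figure D5:**
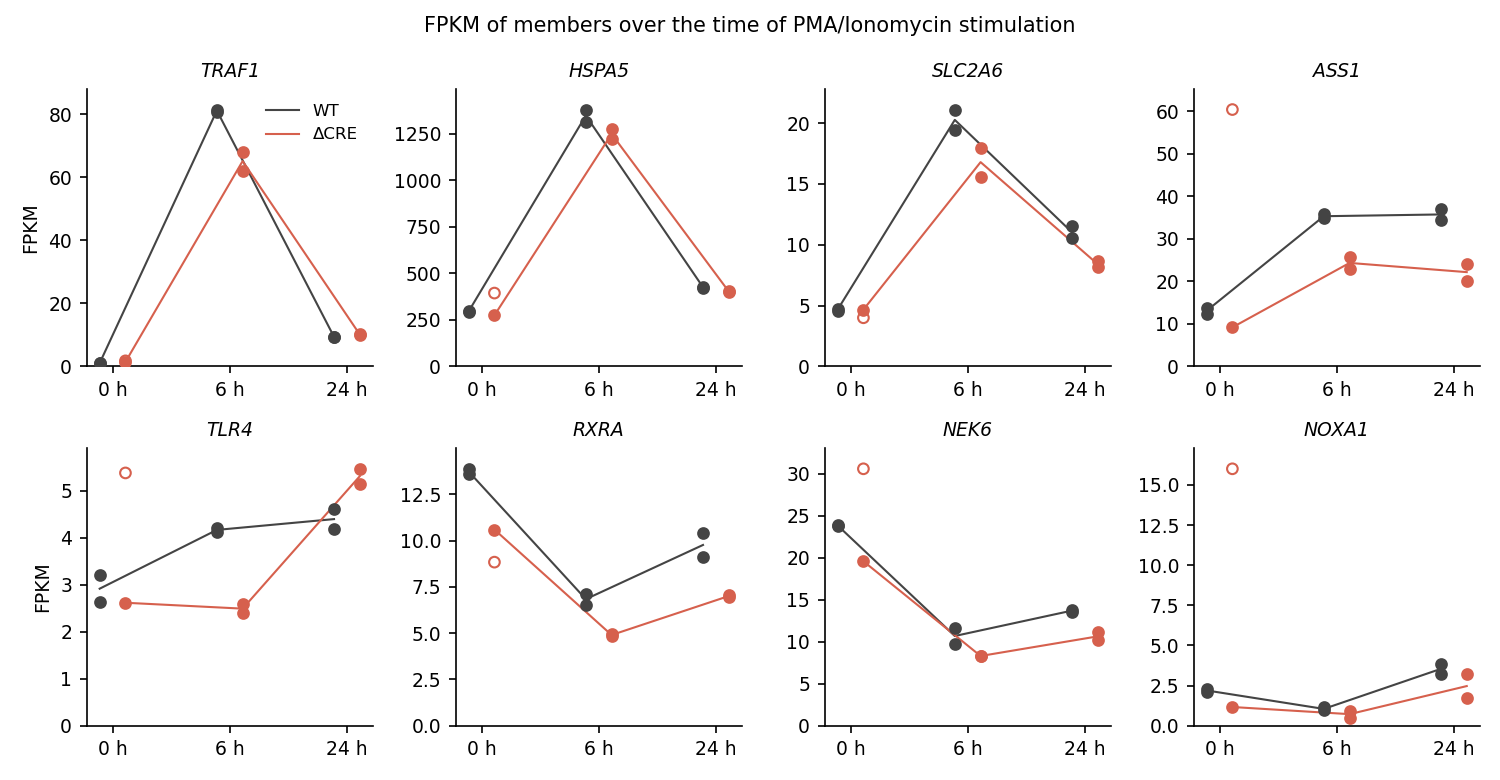
FPKM of 8 members in each library at 0, 6 and 24 h, with WT in black, ΔCRE in red, lines through the means and an open circle for ΔCRE 0 h replicate 1, which is left out of the lines. In TRAF1, HSPA5 and SLC2A6 both genotypes peaked at 6 h, and TLR4 at 6 h was lower in ΔCRE cells by 0.57 on the log2 scale.

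The change of the genotype difference from 6 to 24 h was taken as an interaction in the same model. It is made of the values on which the region was chosen and is given as a description, from which nothing is read. The member median of this change was −0.02. Its call rule, an adjusted p under 0.05 (limma), took 0 members, with 0.181% of all features called (0.0247% lower and 0.157% higher at 24 h). Under an unadjusted p of 0.05 (limma) were 12 of 209 members, with 6.94% of all features. For TLR4 the difference was 0.79 higher at 24 h than at 6 h.

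For comparison, the 204 features of chromosome 17 below 20 Mb had median differences of −0.21 at 6 h and −0.24 at 24 h. Their interquartile range was 0.19 at both times, and 90.2% and 95.6% of them were below 0, much as in the members. At 0 h, with ΔCRE replicate 2, the median was −0.19 there and −0.22 on chromosome 10 past 60 Mb. The 325 features of chromosome 10 past 60 Mb had medians of −0.18 and −0.19 with a wider interquartile range, 0.43 and 0.52, and 68.3% and 70.5% of them were below 0. Just inside the level limit of 0.5 FPKM were CEL at 0.501 FPKM, LOC389791 at 0.532 FPKM and ANGPTL2 at 0.536 FPKM, with differences at 6 h of −0.13, −0.21 and −0.38. Just outside it were MIR181A2HG at 0.480 FPKM, LOC100272217 at 0.472 FPKM and NRARP at 0.448 FPKM, with −0.26, −0.20 and 0.09.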

How the data were processed

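RNA was measured in 12 libraries of WT and ΔCRE MDA-MB-231 cells, grouped by the genotype and time in their labels. The authors made stranded mRNA libraries, mapped them to hg19 with TopHat 2.0.12 and estimated expression with Cufflinks 2.2.1, and they deposited FPKM values per feature and library. The annotation, the strand setting and any scaling between libraries are not given in the sources used here. Every one of the 12 columns was used. In the headers of ΔCRE 0 h and 6 h replicate 2 a digit stands in place of the letter h, and they were assigned to the only labels left. Locus spans are the authors' and can hold several genes: 60 members share theirs with another feature.

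Deposited FPKM values were taken to log2(FPKM + 1). Features with a mean of at least 0.5 FPKM over 10 libraries (without the ΔCRE 0 h group) were fitted with limma 3.58.1 in R 4.3.3 (5 groups, eBayes with trend), and p-values were adjusted by Benjamini-Hochberg over 12129 features. The script was tested on simulated data. Summaries used Python 3.11.15 with pandas 2.3.3. Gene spans and strands came from GENCODE for GRCh37, in which 184 members were matched by symbol and position.

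The members, the lists and the rule for named genes were chosen with earlier results of these data known. Named are ENG and EGFL7, the 8 lowest and 8 highest members whose ΔCRE libraries were both above or both below the WT libraries at 6 and 24 h (ranked by the mean difference), 5 members nearest the median with at least 20 FPKM, the 3 highest and 3 lowest per comparison of times, the features at the limits, and up to 4 members with the highest level per list. NOTCH1, ABL1, TSC1, PSMD5, CNTRL, RAB14, STOM, NTMT1, MRPS2 and the small RNAs were named after their values were seen. The alternatives tried were quantile normalization, rescaling to TPM, a pseudocount of 0.1, a limit of 5 FPKM or none, eBayes without trend, all 12 libraries, 11 libraries, the replicate number as a block, members without small RNAs, members chosen over the 10 libraries, and leaving out each library. Cuffdiff results were not analysed here.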

Additional observations from a re-analysis of the deposited data

Results flagged for a closer look

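A pair of genes below the level limit of the region had signal in the library labelled ΔCRE 0 h replicate 1 but stayed under 0.5 FPKM in all of the remaining 11. LCN2, the lipocalin of neutrophils and epithelia, was at 1532 FPKM there, and LCN15, which lies in the lipocalin cluster farther along the arm, at 22.5 FPKM. The same library held the markers of gut epithelium given above, whose part in these values was not tested.

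For TLR4 and TRAF1 both ΔCRE libraries were below both WT libraries at 6 h and above both at 24 h. The difference between genotypes was higher at 24 h than at 6 h by 0.79 for TLR4 and by 0.41 for TRAF1. Both were picked for this opposite order of the libraries, from values on which the region was chosen, so no test of the difference is given.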

How the results depend on the processing

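The median difference of the members stayed below 0 at 6, 24 and 0 h under each alternative that gave it, and moved beyond the SD of the library pairs in a single case, −0.19 at 6 h with no filter on low values. The pairs share libraries, so this SD is a rough measure of spread. Leaving out each library gave medians of −0.26 to −0.21 at 6 h, −0.29 to −0.22 at 24 h and −0.20 to −0.14 at 0 h.

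The counts of calls depended on the model far more, for all features as for the members. As reported, 711 of all 12129 features were called lower at 6 h and 454 at 24 h. The fit with all 12 libraries adds the ΔCRE 0 h group, and with it the library that stood apart. It called 1 member lower at 6 h and 1 at 24 h (0.157% and 0.0708% of all features). In WT cells 19, 27 and 17 members changed in it at 6 h against 0 h, 24 h against 0 h and 24 h against 6 h (7.08%, 10.1% and 4.96% of all features). In that fit the WT differences of GSN, ASS1, COL5A1 (24 h against 6 h) and NOXA1 kept their size and lost their call, with adjusted p between 0.183 and 0.665 (limma). Quantile normalization gave 70 members called lower at 24 h, with 545 of all features, and rescaling to TPM 74, with 559. Without WT 6 h replicate 1, 13 members were called lower at 6 h, 27 without WT 6 h replicate 2 and 18 without ΔCRE 6 h replicate 2, and the counts ran from 13 to 56. The same fits called 235, 299 and 287 of all features lower. At 24 h the counts were 5 without WT 24 h replicate 1, 16 without WT 24 h replicate 2, 23 without ΔCRE 24 h replicate 1 and 6 without ΔCRE 24 h replicate 2, and ran from 5 to 52, where 115, 161, 215 and 121 of all features were called lower. The counts of members changed in WT cells also moved when a library was left out, and so did those of all features. The interaction had between 0 and 1 member called, the 1 without WT 24 h replicate 1. In these fits a group with 1 library left is assumed to vary like the others. The causes of these changes were not tested.

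With the replicate number as a block, 90 members were called lower at 6 h and 96 at 24 h, and 8.52% and 6.56% of all features. Same-numbered ΔCRE and WT libraries had deviations from the means of their groups that correlated across features at 0.112 (6 h) and 0.121 (24 h), and with 2 numbers this does not pair the samples.

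Rescaling to TPM moved the median of all features between 0 and 6 h in WT cells from −0.0071 to −0.11. The share of rises among the member calls was then 41.0% at 6 h against 0 h and 69.3% at 24 h against 6 h, where it was 61.1% and 44.9% as reported. Among the calls of all features it was 34.7% and 65.6% after rescaling and 51.9% and 45.8% as reported. The depth of the libraries is unknown, which leaves the counting error of members with low FPKM unmeasured.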
